A study of Mus musculus with 10 samples.

Results

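Chromatin accessibility was examined at 10 genes that mark the mesothelium, the sheet of cells that lines the body cavities and covers the heart as the epicardium. The genes were *Msln*, *Upk1b*, *Upk3b*, *Lrrn4*, *Muc16*, *Pdpn*, *Bnc1*, *Bnc2*, *Gpm6a* and *Calb2*, taken on the mm10 assembly. A peak was taken as a member when its summit lay inside one of these genes or within 25 kb of it. Of 184764 regions built from all peak lists, each reaching 250 bp to either side of a summit, 161 met this rule, from 3 at *Gpm6a* to 38 at *Bnc2*. Nearness to a gene does not show that a region acts on it.

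Bulk ATAC-seq, in which the Tn5 transposase cuts accessible DNA, had been run on sorted cells of pooled embryonic hearts. All hearts were Rosa26tdTomato;Wt1CreERT2/+ on C57BL/6J, and tamoxifen given at E9.5 marked cells that were then expressing *Wt1*, together with their descendants, with tdTomato. Epicardial cells (CD31-, tdTomato+, PDPN+) were taken at E11.5 (3 libraries, 6 hearts each) and E17.5 (3 libraries, 4 hearts each). Epicardium-derived cells (EPDCs; CD31-, tdTomato+, PDPN-), the mesenchymal cells that leave the epicardium, were taken at E12.5 (1 library) and E13.5 (2 libraries, 4 to 13 hearts each), of which one combined technical replicates. Per the sample labels, each sort took 40000 to 50000 live cells. The study's methods give a lower minimum of cells and, at E13.5, a higher minimum of hearts. The number of hearts behind the E12.5 library was not given in the sources used here. Biological replicates were separate pools of hearts. Podoplanin, the product of the member gene *Pdpn*, was itself the sort marker, so any EPDC difference at *Pdpn* is tied to the sort.

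As background, the mesothelium is a simple squamous epithelium that keeps features of mesoderm. Its surface carries a glycocalyx in which mesothelin (*Msln*), a lipid-anchored glycoprotein, binds the large transmembrane mucin MUC16, and uroplakins (*Upk1b*, *Upk3b*), *Lrrn4* and podoplanin are further membrane proteins of this surface. Basonuclins (*Bnc1*, *Bnc2*) are zinc-finger proteins of the nucleus, calretinin (*Calb2*) is a cytoplasmic calcium-binding protein and *Gpm6a* encodes a membrane glycoprotein better known from neurons. During epicardial epithelial-to-mesenchymal transition, cells leave this sheet and lose epithelial features.

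The sequences shown first are those of the elements on which the results turn. Among them are promoters and distal elements that lost rank in EPDCs (*Upk3b*, *Muc16*, *Msln* −2.6 kb, *Pdpn* +21 kb, *Bnc1* −3.9 kb). Also shown are the *Msln* promoter that was called at E17.5 alone, and the *Pdpn* element with the largest rise in EPDCs. Promoters are the 200 bases upstream of the start site, and the others are 201 bases around the summit, all read 5′ to 3′ on the strand of the named gene from GRCm38 (mm10). They lie at chr5:136038296-136038495, chr5:136019932-136020132, chr9:18674531-18674730, chr17:25754379-25754578, chr17:25756920-25757120, chr4:143278477-143278677, chr4:143279705-143279905 and chr7:81996131-81996331, in the order printed. Capitals mark matches, on either strand, to the motifs searched. AP-1 was searched as TGANTCA and the antioxidant response element as TGACNNNGC. The MAF site was searched as TGCTGAC and the E-box bound by TCF21 as CAGCTG. For TEAD factors the letters searched were GGAATG, for GATA factors they were AGATAA, and the shared WT1 and EGR motif was written GNGTGGGNG.
Upk3b upstream: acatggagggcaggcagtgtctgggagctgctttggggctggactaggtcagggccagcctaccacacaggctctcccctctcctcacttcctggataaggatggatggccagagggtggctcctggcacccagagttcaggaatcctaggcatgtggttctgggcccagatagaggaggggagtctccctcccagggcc
Upk3b −18.5 kb: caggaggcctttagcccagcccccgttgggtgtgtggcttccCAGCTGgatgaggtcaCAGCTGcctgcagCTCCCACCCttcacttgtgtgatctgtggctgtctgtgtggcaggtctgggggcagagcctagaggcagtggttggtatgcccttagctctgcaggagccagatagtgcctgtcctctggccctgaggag
Muc16 upstream: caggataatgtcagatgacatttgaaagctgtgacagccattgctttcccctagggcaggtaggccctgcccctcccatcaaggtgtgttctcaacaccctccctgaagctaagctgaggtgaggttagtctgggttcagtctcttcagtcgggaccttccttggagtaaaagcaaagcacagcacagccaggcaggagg
Msln upstream: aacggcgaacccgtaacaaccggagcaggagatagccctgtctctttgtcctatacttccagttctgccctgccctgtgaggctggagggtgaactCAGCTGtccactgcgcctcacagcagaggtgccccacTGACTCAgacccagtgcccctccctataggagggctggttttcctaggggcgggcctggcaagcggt
Msln −2.6 kb: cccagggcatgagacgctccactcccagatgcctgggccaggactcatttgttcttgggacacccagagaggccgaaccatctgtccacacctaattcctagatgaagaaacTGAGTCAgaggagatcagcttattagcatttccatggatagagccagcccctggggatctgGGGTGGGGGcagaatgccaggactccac
Pdpn +21 kb: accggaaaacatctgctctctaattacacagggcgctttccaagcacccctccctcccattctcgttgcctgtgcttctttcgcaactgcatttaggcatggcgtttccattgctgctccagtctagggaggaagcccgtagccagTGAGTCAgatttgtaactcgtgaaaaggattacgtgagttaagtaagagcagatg
Pdpn +19.8 kb: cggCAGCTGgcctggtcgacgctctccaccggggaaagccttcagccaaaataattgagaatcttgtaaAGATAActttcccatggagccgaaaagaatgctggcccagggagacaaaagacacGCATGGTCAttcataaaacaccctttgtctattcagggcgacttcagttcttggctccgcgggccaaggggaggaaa
Bnc1 −3.9 kb: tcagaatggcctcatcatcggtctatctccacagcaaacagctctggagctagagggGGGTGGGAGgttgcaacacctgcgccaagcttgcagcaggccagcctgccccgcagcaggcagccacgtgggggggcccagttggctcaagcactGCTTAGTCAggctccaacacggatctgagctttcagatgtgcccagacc
The promoters of *Upk3b* and *Muc16* held no match in these windows of 200 bases. The *Muc16* window does not reach its summit, which lay 316 bp upstream of the start. In the full regions, 250 bp to either side of the summit, TEAD letters occurred at both promoters and WT1/EGR letters at that of *Muc16*. AP-1 letters stood in the *Msln* promoter and in the elements at *Msln* −2.6 kb and *Pdpn* +21 kb.

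Each region was given, for every library, a rank percentile: all summits of the library were ordered by the −log10 p of the peak caller, and the best summit of the region was placed in that order, with 0 for a region without a summit. A value of 0 means below the caller's threshold, not closed chromatin. Libraries held 119386 to 142743 summits at E11.5, 94909 to 127933 at E17.5 and 102002 to 131830 in EPDCs. Background at the summit scale was 3.24 to 4.10, 2.07 to 3.61 and 4.19 to 10.9 fragments, the highest in E13.5 sample 2. Only the EPDC lists held summits outside chromosomes 1 to 19, X and Y (252 to 268 against 0), and local background over genome background was 2.44 to 2.72 in epicardial and 1.34 to 2.42 in EPDC libraries, so the lists differed in more than the cells, and these differences and the sort cannot be told apart. Promoters of the epicardial genes *Wt1* and *Tbx18* were called in all 9 libraries, those of the endothelial *Pecam1*, *Cdh5* and *Emcn*, the blood *Ptprc* and *Spi1* and the cardiomyocyte *Myh6* in none, and that of *Postn*, a mesenchymal matrix gene, was higher in every EPDC library than in every epicardial one, while the other 4 mesenchymal promoters (*Pdgfra*, *Pdgfrb*, *Col1a1* and *Col3a1*) overlapped. The mean percentile over the 6 epicardial marker promoters was 77.9 to 80.6 at E11.5, 88.9 to 92.3 at E17.5 and 67.1 to 71.8 in EPDCs, and over the 5 mesenchymal ones 50.1 to 53.3, 53.3 to 64.7 and 71.5 to 78.9. The 5 endothelial promoters gave 34.7 to 35.1, 34.2 to 34.8 and 34.3 to 35.6, the 5 cardiomyocyte ones 41.8 to 44.7, 34.5 to 41.3 and 33.6 to 34.9, and the 4 blood ones 17.7 to 19.7, 23.9 to 33.9 and 11.48 to 19.3. Among cardiomyocyte promoters, *Myh7* had means of 19.1 and 46.3 in younger and older epicardium, *Tnnt2* of 87.7 and 62.9 and *Actn2* of 93.4 and 81.3, and none of these 3 overlapped between the ages. *Hbb-bs*, a globin, was called at E17.5 only, at a mean of 39.2. The part of these markers in the member results was not tested.

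The member windows held 105 to 123 summits at E11.5, 96 to 132 at E17.5 and 71 to 92 in EPDCs. Scaled to the length of each list, EPDCs held fewest and E17.5 epicardium most, and the 3 groups did not overlap. Of the 161 regions, 42 were called in all 9 libraries and 45 in only 1 or 2. A promoter region, within 1 kb of the first coding transcript start, was called for 9 of the 10 genes, and *Gpm6a* had none in any library. Of the rest, 7 lay at the start of a neighbouring gene (for example *Rpusd1*, *Crls1* and *Zfp558*), 7 at another start or in the flank of a member's start, and 138 were distal.

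Against epicardium, the mesothelial regions were lower in EPDCs more often than regions at large. Among 116 member regions called in at least 3 libraries, 27 (23.3%) had all 3 EPDC libraries below all 6 epicardial libraries, against 11.45% of all regions. In the opposite direction were 10 (8.62%), against 13% of all regions. With summits ordered by fold enrichment instead, 18 were lower (15.5%, against 10.3%) and 15 higher (12.9%, against 13.9%). The median difference of EPDC from epicardium was −14.1 percentile points in members and −3.0 over all regions. Because the EPDC hearts lay in age between the E11.5 and E17.5 hearts, a region was counted by this rank rule only when EPDCs lay outside both ages. In bulk cells a lower rank from fewer cells with the element and from less accessibility per cell cannot be told apart. The exact permutation test over 84 assignments has a smallest p of 0.0119, and this was the p of each member region said below to be lower or higher in EPDCs by rank, unless another p is given.

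**Figure D1:**
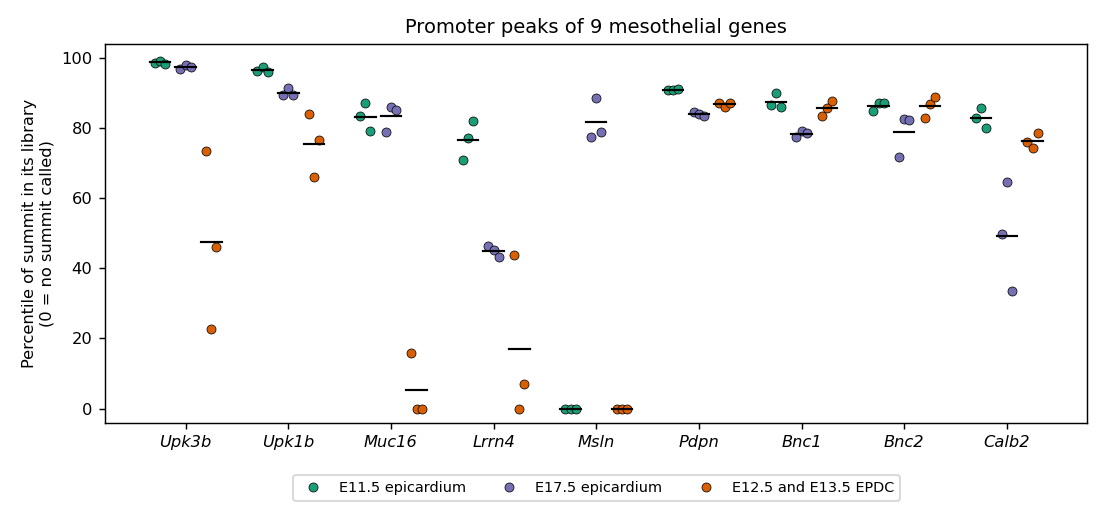
Promoter peaks of 9 member genes, with the percentile of the summit in its library on the vertical axis (0 where no summit was called), 1 point per library, a bar for the group mean, and groups by colour. The 3 EPDC points lie below all epicardial points for *Upk3b*, *Upk1b* and *Muc16*, and only the E17.5 points are above 0 for *Msln*.

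Promoters of the surface genes separated into those that fell in EPDCs and those that did not. Promoters of *Upk3b*, *Upk1b* and *Muc16* were lower in every EPDC library, 3 of the 9 member promoters against 10.3% of promoters at large, and none was higher, against 7.11%. At the *Upk3b* promoter (summit 22 bp upstream of the start, chr5:136038224-136038724), the E11.5 percentiles were 98.6, 99.2 and 98.4 and the E17.5 percentiles 97.0, 97.9 and 97.5. EPDC percentiles there were 73.6 at E12.5 and 22.8 and 46.1 at E13.5. In fragments at the summit, this was 350 to 433 at E11.5, 288 to 487 at E17.5, and 90, 34 and 103 in EPDCs. All 3 EPDC libraries lay below the 6 epicardial ones, with a wide spread among themselves, the E12.5 library being highest.

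The same element was tested across the 47553 regions called in all libraries, by limma on log2 fragments after quantile normalisation, where the *Upk3b* promoter was lower in EPDCs by a log2 difference of −3.01 (SE 0.37, adjusted p = 4.09e-04). Of the 42 member regions in that test, 24 were lower in EPDCs at an adjusted p under 0.05, against 27.2% of all regions, and 5 were higher, against 25.8%. The median log2 difference was −0.48 in the members and −0.02 over all. The EPDC contrast was with the mean of the E11.5 and E17.5 groups. Unlike the rank rule, it can pass a region where EPDCs lie at the level of one age or between the ages. This test leaves out every region that an EPDC library did not call.

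*Muc16*, whose product binds mesothelin, showed the largest fall of any member promoter. Its promoter (316 bp upstream, chr9:18674596-18675096) stood at 83.3, 87.2 and 79.3 at E11.5 and at 79.0, 86.0 and 85.3 at E17.5. Among EPDCs it was called at 15.8 in the E12.5 library and in neither E13.5 library. Summit fragments were 69 to 140 in the epicardial libraries and 19 in the E12.5 one, a mean difference of −78.0 percentile points. Only 4 regions lay in the 229 kb *Muc16* window, and the strongest of these was the start of the neighbouring gene *Zfp558* (92.8 to 97.1 in epicardium, 95 to 96.1 in EPDCs), where the groups overlapped (exact permutation p = 0.917).

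*Upk1b*, a tetraspanin that pairs with other uroplakins, fell at its promoter and at 3 intronic elements. The promoter (chr16:38799995-38800495) was at 96.3, 97.5 and 96.0 at E11.5, 89.3, 91.4 and 89.5 at E17.5, and 83.9, 66.0 and 76.7 in EPDCs. The intronic element at +7.0 kb (chr16:38793075-38793575) stood at 92.8 to 97.2 in epicardium and at 88.0, 69.9 and 78.4 in EPDCs. Those at +14.9 and +1.7 kb were at 87.0 to 92.4 against 58.0 to 65.2 and at 29.4 to 56.5 against 3.53 to 20. By limma, the promoter was lower by a log2 difference of −1.46 (SE 0.19, adjusted p = 1.20e-05). *Upk1b* also had 3 regions called in all EPDC libraries and in no epicardial library, at +36.5, +24.8 and −16.4 kb, of which the last stood at 37.4, 30.2 and 31.6. These were the 3 such regions among the members (2.59%, against 4.46% of all regions). With summits ordered by fold enrichment, the *Upk1b* promoter and the elements at +7.0 and +1.7 kb kept the direction but overlapped epicardium.

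*Lrrn4*, a leucine-rich-repeat membrane protein, had 5 regions lower and 1 higher in EPDCs among 14 tested, beside 11.45% and 13% of all regions. Its main promoter region (93 bp upstream) was at 70.9, 77.3 and 82.0 at E11.5, 46.3, 45.2 and 43.3 at E17.5 and 43.9, 0 and 7.15 in EPDCs, so that the E12.5 library overlapped E17.5 epicardium (exact permutation p = 0.0357). Without summits of −log10 q under 5, and with the strongest overlapping interval, every EPDC library was lower there (−43.3 and −44.1 percentile points). The flank at −0.6 kb was at 46.2 to 57.1 in all 6 epicardial libraries and uncalled in EPDCs. At −3.9 kb (chr2:132884557-132885057) epicardium stood at 81.2 to 92.8 and EPDCs at 71.1, 46.1 and 43.1. Elements at −4.6 and −13.1 kb were stronger at E17.5 than at E11.5, reaching 78.9 and 82.7, and stood at 0 to 23.3 and at 0 in EPDCs. For that at −13.1 kb, the stage call was lost by fold enrichment (24.8 percentile points). Its EPDC call was lost with equal numbers of top summits (−49.15). An exonic region at +1.2 kb went the other way, at 49.5 to 62.6 in epicardium and 82.2, 89.7 and 91.4 in EPDCs.

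At *Upk3b* the distal element at −18.5 kb, in an exon of *Dtx2*, moved like the promoter. It stood at 92.4, 94.0 and 93.8 at E11.5, at 87.0, 90.7 and 88.1 at E17.5, and at 68.2, 20.5 and 42.4 in EPDCs, but overlapped when ordered by fold enrichment. A weaker element at +11.6 kb was at 17.2 to 30.4 at E11.5 and 40.9 to 46.6 at E17.5, and uncalled in EPDCs. The intergenic region at +13.3 kb was higher in EPDCs (92.5, 93.1 and 94.9) than in epicardium (75.7 to 89.2; exact permutation p = 0.0238). Across 15114 promoters the 3 most like that of *Upk3b*, by root mean square difference over the 9 libraries, belonged to *Edn2*, *Elf3* and *Tmem125*, at 7.31, 8.59 and 8.82 percentile points. Their EPDC means were 52.9, 48.8 and 52.6 against E11.5 means of 95.1, 86.4 and 91.3.

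At *Msln* 1 region had every EPDC library below every epicardial one, the element 2.64 kb upstream. It stood at 97.5, 96.7 and 98.5 at E11.5, 96.1, 95.2 and 94.2 at E17.5 and 80.3, 75.7 and 66.5 in EPDCs, with 336 to 517 summit fragments in epicardium and 102 to 170 in EPDCs. By limma its log2 difference was −2.20 (SE 0.19, adjusted p = 3.56e-06). When summits were ordered by fold enrichment, the difference was 0.573 percentile points, of opposite sign. The element 1.74 kb upstream was at 40.4, 22.2 and 28.7 in EPDCs, within reach of E11.5 (31.6, 58.9 and 52.5) but below E17.5 (76.3, 86.5 and 85.1; exact permutation p = 0.0476). By limma it was lower in EPDCs by a log2 difference of −2.08 (SE 0.16, adjusted p = 1.43e-10), while ordering by fold enrichment gave a difference of 3.09 percentile points, of opposite sign. At −19.3 kb, the start of the neighbouring gene *Narfl*, limma gave a log2 difference of −0.48 (SE 0.11, adjusted p = 9.39e-04), and the ranks overlapped.

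**Figure D2:**
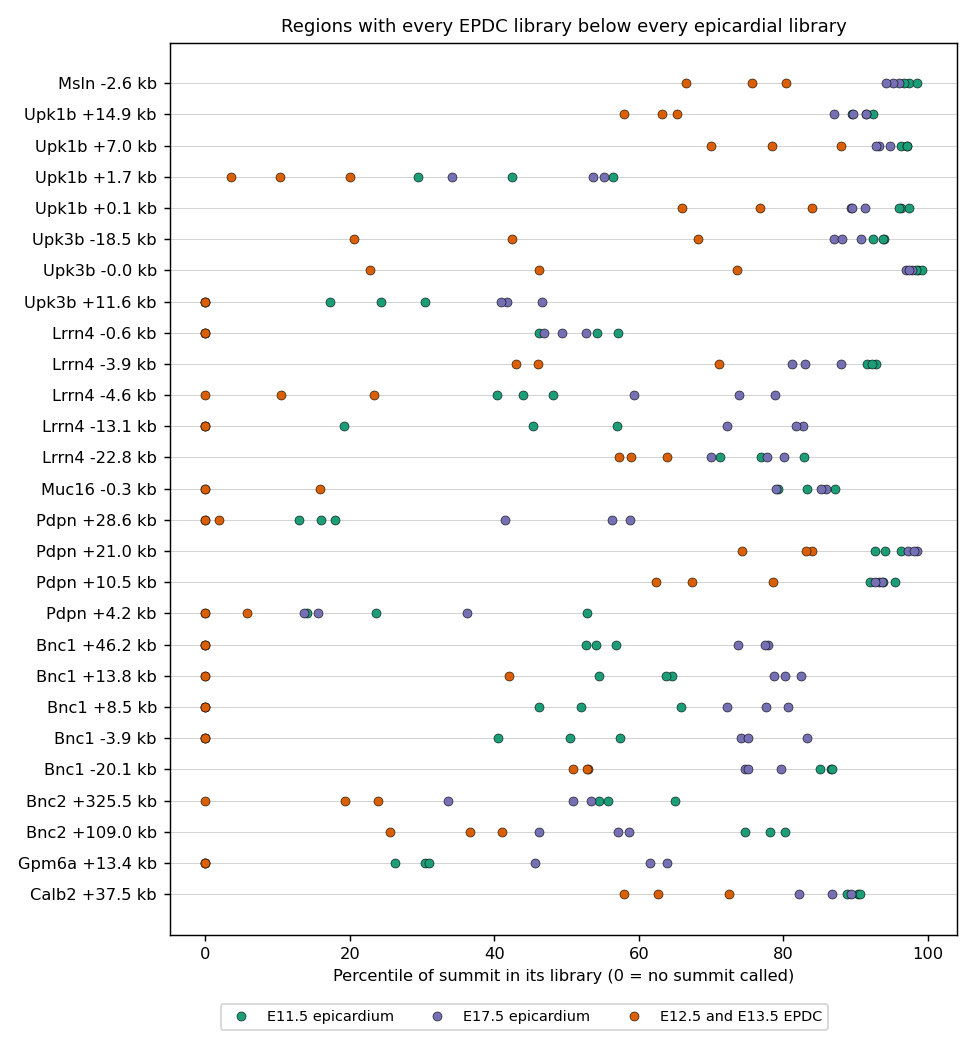
The 27 member regions with every EPDC library below every epicardial library, named by gene and distance from the start site, with the percentile of the summit in its library on the horizontal axis and 1 point per library. In 7 regions (25.9%, against 26.1% of all regions lower in EPDCs) all EPDC points lie at 0, and at *Bnc1* 4 of the 5 regions have E17.5 points above the E11.5 points.

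The measures gave different results at the *Pdpn* promoter. At that promoter (chr4:143299297-143299797), podoplanin's gene stood at 90.9, 90.8 and 91.3 at E11.5, 84.6, 84 and 83.6 at E17.5, and 87.2, 86.1 and 87.3 in EPDCs, which lay between the epicardial ages (exact permutation p = 0.690). By limma on fragments it was lower in EPDCs by a log2 difference of −0.43 (SE 0.10, adjusted p = 5.70e-04), and on the depth-normalised score the difference was −0.01 (adjusted p = 0.977). Ordered by fold enrichment, the difference was 21.2 percentile points, of opposite sign. Elements within the gene separated more. The intronic element at +21 kb (chr4:143278327-143278827) was at 94.1, 96.3 and 92.7 at E11.5, 97.2, 98.5 and 98 at E17.5 and 84, 74.4 and 83.1 in EPDCs, a log2 difference of −1.16 by limma (SE 0.10, adjusted p = 3.60e-10).

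A further intronic element of *Pdpn*, at +10.5 kb, was at 92.1 to 95.4 in epicardium and 78.6, 62.4 and 67.4 in EPDCs. The region at +28.6 kb stood at 13.0 to 17.9 at E11.5, 41.5 to 58.8 at E17.5 and at most 1.92 in EPDCs (exact permutation p = 0.0238). That EPDC call was lost with a −log10 q of at least 5 (−24.1 percentile points) and with equal numbers of top summits (−22.75). Close to the +21 kb element, that at +19.8 kb (chr4:143279555-143280055) went the other way. It stood at 33.5, 17 and 48.9 at E11.5, at 0, 0 and 2.76 at E17.5, and at 71.1, 84.3 and 84.3 in EPDCs, the largest rise of any member region in EPDCs at 62.9 percentile points. Elements of the sort marker's introns thus had opposite orders.

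At *Bnc1*, a basonuclin gene, the promoter overlapped between EPDCs and epicardium by rank, while several distal elements were not called in EPDCs. The promoter (chr7:81992171-81992671) was at 86.7, 90.0 and 86.0 at E11.5, 77.5, 79.3 and 78.5 at E17.5 and 83.5, 85.7 and 87.8 in EPDCs (exact permutation p = 0.417; limma log2 difference −0.14, SE 0.10, adjusted p = 0.236, and 0.29 on the depth-normalised score). Ordered by fold enrichment, it was higher in every EPDC library, by 23.0 percentile points. The element at −3.9 kb was at 40.6, 50.5 and 57.4 at E11.5, rose to 74.1, 83.3 and 75.1 at E17.5, and was uncalled in all EPDC libraries. Intronic +8.5 kb (chr7:81983538-81984038) was at 46.2, 52.0 and 65.8, then 72.2, 80.7 and 77.7, and 0 in EPDCs, and intergenic +46.2 kb at 52.7 to 56.8, then 73.7 to 77.8, and 0. At +13.8 kb, E13.5 sample 2 alone of the EPDC libraries had a summit, at 42.0, below the epicardial 54.5 to 82.4. The strongest distal element, at −20.1 kb, was at 74.7 to 86.8 in epicardium and 50.9 to 53.0 in EPDCs.

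The other transcription factor, *Bnc2*, behaved differently. Its promoter was at 71.8 to 87.3 in epicardium and 82.8, 86.8 and 88.9 in EPDCs (exact permutation p = 0.417; higher by 5.22 percentile points without overlap when equal numbers of summits were taken), and the alternative start at +129.7 kb was at 84.8 to 91.9 and 87.5 to 92.7 (exact permutation p = 0.393). Intronic elements at +325.5 and +109.0 kb were lower in EPDCs, at most 23.9 and 41.1 against at least 33.5 and 46.1, and those at +312.8 and +37.4 kb were higher (exact permutation p = 0.0119, 0.0238, 0.0357 and 0.0238 in that order). The latter was at 63.9 to 66.5 at E11.5, 37.4 to 52.1 at E17.5 and 79.1, 83.7 and 85.8 in EPDCs. The *Bnc2* +282.4 kb element stood in EPDCs (71.4, 73.5 and 72.3) as in E11.5 epicardium (76.7, 69.4 and 73.1), and at 18.5 to 22.6 at E17.5 (exact permutation p = 0.286 for EPDC against epicardium). By limma, where the contrast is with the mean of both ages, its log2 difference was 0.92 (SE 0.17, adjusted p = 6.60e-05), although EPDCs stood as at E11.5.

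Of the last pair, *Gpm6a* had 1 intronic element of note, at +13.4 kb (chr8:54967974-54968474), at 30.4, 26.2 and 31.0 at E11.5, 45.7, 61.5 and 63.9 at E17.5 and 0 in EPDCs. With equal numbers of top summits, its EPDC libraries were no longer below every epicardial one (−27.6 percentile points). At *Calb2* the promoter was not lower in EPDCs (75.9, 74.4 and 78.6 against 33.5 to 85.6 in epicardium, exact permutation p = 0.452), while the downstream element at +37.5 kb was, at 57.9, 62.6 and 72.5 against 82.2 to 90.6. By limma the latter had a log2 difference of −1.09 (SE 0.13, adjusted p = 6.69e-08).

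**Figure D3:**
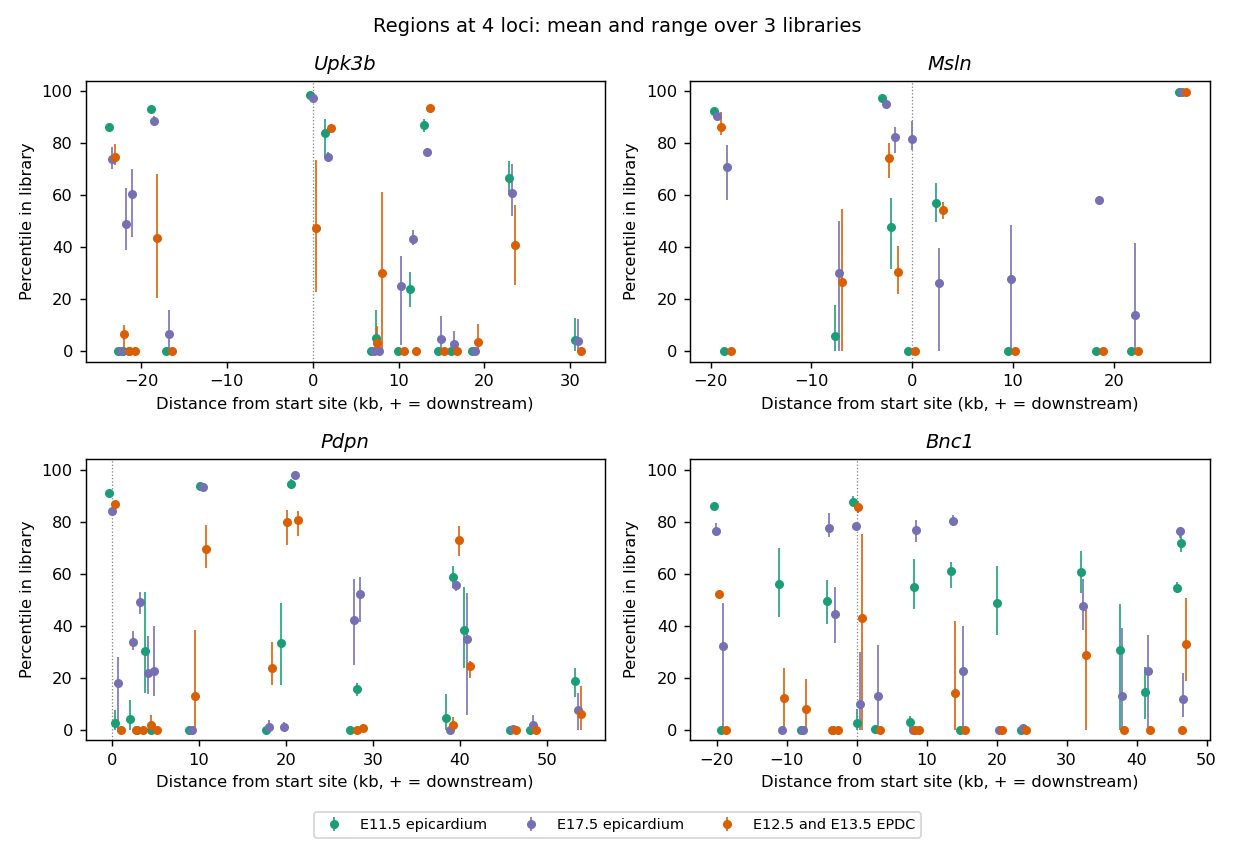
Regions at the *Upk3b*, *Msln*, *Pdpn* and *Bnc1* loci by distance from the start site in kb (positive downstream), with the percentile in the library on the vertical axis. Points are means and bars the range over 3 libraries, groups are drawn slightly apart sideways, and the *Bnc1* start (0 on the axis) keeps a high EPDC mean while EPDC points at −3.9, +8.5 and +46.2 kb lie at 0.

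The EPDC libraries were not alike at these regions. Of the 27 regions lower in EPDCs, 20 were called in at least one EPDC library, and in 13 of these (65.0%) the E12.5 library was the highest of the 3, against 34.2% of the corresponding regions genome-wide. It was the lowest in 3. The *Muc16* promoter (15.8 against 0 and 0) and the *Upk3b* promoter are examples. With the E12.5 library left out, 30 member regions were lower (22.4%, against 10.8% of all regions), on the rule then used of calls in at least 2 libraries. Local over genome background was 1.34 in the E12.5 library and 2.05 and 2.42 in the E13.5 libraries. Age, sample and this ratio change together between these libraries, and their part in this was not tested.

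Between ages, the *Msln* promoter was called at E17.5 alone. This region (42 bp upstream, chr17:25754170-25754670) was uncalled in all 3 E11.5 and all 3 EPDC libraries, and was at 77.4, 88.7 and 78.8 at E17.5, with 172, 390 and 282 fragments. It was the only one of the 9 member promoters that was higher at E17.5, a share near the 12% of promoters at large. The 3 promoters nearest to it in pattern over the 9 libraries were those of *2610028H24Rik*, *Serpinb5* and *Mrgbp*, at 0.887, 2.10 and 2.83 percentile points. The element at −1.7 kb rose from 31.6, 58.9 and 52.5 to 76.3, 86.5 and 85.1, a log2 difference of 1.49 by limma (SE 0.19, adjusted p = 5.62e-07). With the strongest overlapping interval its groups overlapped, and the difference was 13.8 in place of 35.0 percentile points. The element at −2.6 kb was lower at E17.5 by rank (94.2 to 96.1 against 96.7 to 98.5), and by limma it had a log2 difference of 0.13 (SE 0.22, adjusted p = 0.651), which was −0.32 on the depth-normalised score.

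Over the members, 26 of 108 regions called in at least 3 epicardial libraries (24.1%) were higher in every E17.5 library than in every E11.5 library, against 17.6% of all regions. The shares were close to each other with equal numbers of top summits (29.9% against 28.8%) and on the depth-normalised score (25% against 24.7%). The converse held for 46 (42.6%), against 44.6%. With equal numbers of top summits 27 were lower (31.0%, against 33.1%), while the member share lay above that of all regions by fold enrichment (42.6% against 40%) and with the strongest overlapping interval (49.6% against 45.9%). With 3 libraries against 3 the exact permutation test cannot go below 0.10. The median difference was −3.68 percentile points in members and −7.31 over all regions. By limma, 7 of 42 member regions were higher at E17.5 and 8 lower, against 24.2% and 23.1% of all regions.

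Gains at E17.5 numbered 6 of 14 tested regions at *Pdpn*, 5 of 14 at *Bnc1*, 4 of 9 at *Msln* and 4 of 10 at *Upk3b*, and *Upk1b* and *Muc16* had none, beside 17.6% of all regions (28.8% with equal numbers of top summits). In 12 member regions a summit was called in all E17.5 libraries and in no E11.5 library, and none of these 12 was called in an EPDC library. They were 11.1% of the tested members, against 7% of all regions, and genome-wide 66.7% of such regions were called in no EPDC library. The 12 included *Upk3b* −21.7 and −21.1 kb, in an intron of *Dtx2*, at 39.1 to 62.7 and 43.9 to 70.1, *Msln* −18.4 kb at 58.3 to 79.3 and *Lrrn4* +28.5 kb, in an intron of *Crls1*, at 58.0 to 65.9. Within *Pdpn*, such regions lay at +27.8, +4.8 and +3.2 kb, the last at 44.6, 52.9 and 49.6. Of the 27 regions lower in EPDCs, 10 (37.0%) were higher and 9 (33.3%) lower at E17.5, against 23.8% and 18.9% of all regions lower in EPDCs.

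*Bnc2* had more losses than any other member, 19 of the 46. Of its 27 tested regions 19 were lower at E17.5 and 2 higher, beside the 44.6% and 17.6% of all regions. At *Bnc2* 7 intronic regions were called in all E11.5 and in no E17.5 library, a pattern of 12 member regions (11.1%) and 17.1% of all regions. The +282.4 kb element fell from 69.4 to 76.7 at E11.5 to 18.5 to 22.6, a log2 difference of −1.5 by limma (SE 0.20, adjusted p = 9.69e-07). At *Calb2* the promoter fell from 82.9, 85.6 and 80.1 to 49.9, 64.5 and 33.5, a log2 difference of −1.09 (SE 0.20, adjusted p = 7.28e-05). The *Bnc1* window held both directions, with 5 regions higher and 5 lower of 14 tested, among the latter +46.7 kb (68.5 to 78.0 at E11.5 against 4.77 to 21.6), next to the +46.2 kb element that rose. With the strongest overlapping interval both gave a difference of 4.81 percentile points, and the ages overlapped.

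Of the 9 member promoters, all but *Msln* and *Muc16* were lower by rank at E17.5, against 27.7% of promoters at large. For *Upk3b*, *Pdpn*, *Bnc1*, *Bnc2* and *Upk1b* the limma adjusted p for the same change was 0.759, 0.258, 0.668, 0.676 and 0.0607, with log2 differences of −0.18, −0.16, −0.07, −0.07 and −0.53, of which the first 4 turned positive when the libraries were centred on their medians instead (0.26, 0.17, 0.20 and 0.13). On the depth-normalised score that of *Upk1b* was −0.71 (adjusted p = 0.0124). The fall in rank of these 5 promoters did not pass the test on fragments, that of *Calb2* did, and the *Lrrn4* promoter could not be entered because one EPDC library did not call it.

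**Figure D4:**
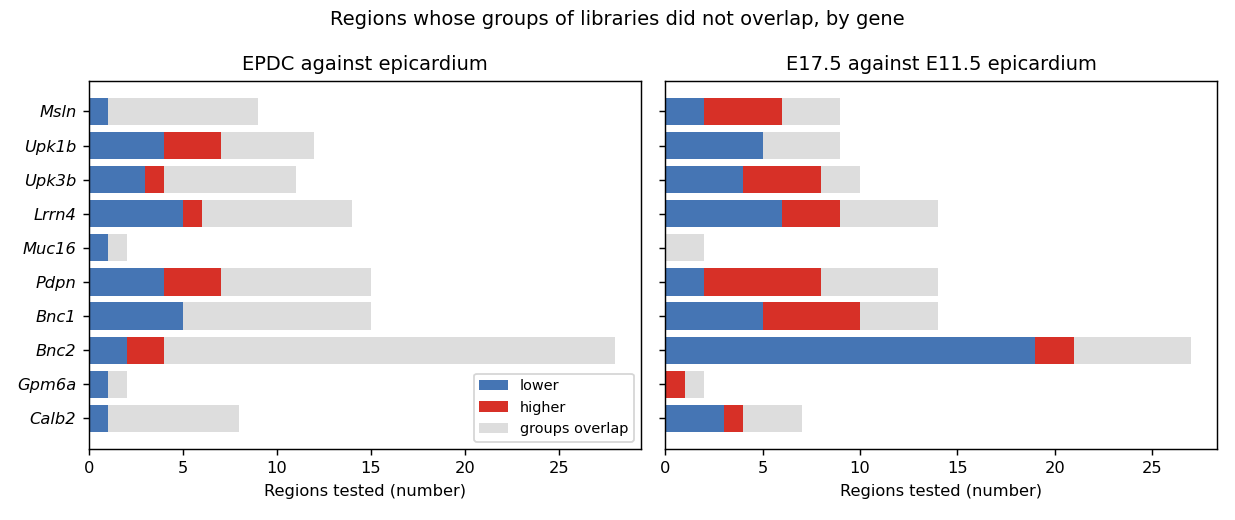
Number of tested regions per gene whose groups of libraries did not overlap, for EPDC against epicardium (left) and E17.5 against E11.5 epicardium (right), with lower, higher and overlapping regions stacked. *Bnc2* has 19 of 27 regions lower at E17.5, and *Lrrn4* and *Bnc1* have 5 regions each lower in EPDCs.

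In motif content, TEAD letters occurred in 16 of the 27 regions lower in EPDCs (59.3%), against 33.1% of all 184764 regions of the same length, and WT1/EGR letters in 9 (33.3%, against 19%). In the 26 regions higher at E17.5 the counts were 9 (34.6%) and 4 (15.4%), and over all 161 member regions the shares were 41.6% and 22.4%. AP-1 letters were found in 8 of these 27 (29.6%) and in 10 of the 26 regions higher at E17.5 (38.5%), against 22.8%. The antioxidant response element occurred in 5 of 27 and 5 of 26, against 19.9%, the MAF site in 1 and 1, against 11.2%, GATA in 10 and 9, against 29.8%, and the TCF21 E-box in 10 and 9, against 33.5%. Any E-box (CANNTG), which contains the TCF21 form, was in 26 and 25, against 92.1%. The MAF site and the antioxidant response element share letters and can overlap. These are counts of letters on both strands within each region, with no test, and name no factor that binds there.

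Other mesothelial genes gave a comparison from a separate list of 16 promoters. Of these, 5 were lower in EPDCs (*Aldh1a2*, *Krt8*, *Krt19*, *Maf* and *Cdh3*) and none higher, against 10.3% and 7.11% of promoters at large. At E17.5, 5 were higher and 2 lower, against 12% and 27.7%. *Krt8*, a keratin of simple epithelia, was at 32.0 to 45.8 at E11.5, 79.6 to 88.5 at E17.5 and at most 3.66 in EPDCs (exact permutation p = 0.0238). *Cdh3*, P-cadherin, had means of 72.9, 86.1 and 33.0. *Wt1* and *Tbx18*, epicardial transcription factors, stayed high, with means of 95.6 and 96.4 in EPDCs, *Tcf21* had a mean of 92.2, and *Itln1* was called in no library.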

How the data were processed

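The authors aligned ATAC-seq reads to mm10 in the nf-core pipeline. MACS2 2.2.9.1 then gave 1 list per library from paired fragments, with several summits allowed in an interval. The deposited lists give, per summit, a fold enrichment (a ratio over local background) and a −log10 p and −log10 q. These values are not normalised between libraries, and the signal tracks and count comparisons that the authors normalised by TMM were not used here. Technical replicates of one EPDC sample share 1 list, so 10 samples gave 9 libraries. Members and lists were chosen with earlier results of these data known.

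Summits were widened to windows of 501 bp, overlaps were removed by depth-normalised score, and each summit was assigned to its nearest region. Whole fragments were recovered from fold and −log10 p together (100% of epicardial summits gave a whole number that returned the −log10 p within 0.01). Groups were called different when their libraries did not overlap, in regions called in at least 3 libraries, beside exact two-sided permutation tests. limma 3.58.1 (R 4.3.3; empirical Bayes with trend and robust settings) tested log2 fragments of regions called in all 9 libraries, with Benjamini-Hochberg adjustment over all regions. Regions named are the promoters, the strongest region and up to 2 largest non-overlapping differences per gene and comparison, the *Msln* and *Upk3b* elements the study discusses and, chosen after their values were seen, other regions whose groups did not overlap. Annotation was GENCODE M21. The tests were checked on simulated data. The lists hold called summits only, so no counting interval was computed.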

Additional observations from a re-analysis of the deposited data

Results flagged for a closer look

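Summits outside chromosomes 1 to 19, X and Y were used in no comparison. The E12.5 library of EPDCs held 268 of them. The E13.5 libraries held 263 (sample 1) and 252 (sample 2), and each of the 6 epicardial lists held 0. The EPDC and epicardial lists therefore differed in what they retain, and the part of this in the member results was not tested.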

How the results depend on the processing

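Ranking by fold enrichment gave 18 regions lower and 15 higher in EPDCs (15.5% and 12.9% of members, against 10.3% and 13.9% of all regions). The 4 counts of member regions stayed within 1.5 times of the reported value under a −log10 q of at least 5, the strongest overlapping interval, the depth-normalised score, a 10 kb window and the removal of starts of other genes. With equal numbers of top summits, regions lower at E17.5 numbered 27 in place of 46 (31.0% of 87 tested, against 33.1% of all regions). Against E11.5 alone 53 regions were lower in EPDCs (55.8%, against 39.6% of all regions). Against E17.5 alone 46 were lower (50.5%, against 27.7%) and 18 higher (19.8%, against 33.7%). Leaving out 1 library, with calls then needed in 2 libraries, gave 27 to 32 lower (20.6% to 24.2% of members, against 10.3% to 15.2% of all regions) and 10 to 16 higher in EPDCs (7.46% to 11.9%, against 11.3% to 20.4%). The 16 arose without the E12.5 library, at 11.9% against 20.4%. At E17.5 it gave 26 to 37 higher (22.0% to 30.6%, against 16.6% to 23.4%) and 47 to 53 lower (38.8% to 44.7%, against 39.4% to 50.4%). The limma counts without 1 library were 22 to 25 lower (52.4% to 59.5%, against 23.1% to 27.2%) and 5 to 6 higher in EPDCs (11.9% to 14.3%, against 22.0% to 26.4%), and 3 to 10 higher (7.14% to 23.8%, against 19.9% to 27.1%; 3 without E11.5 replicate 3) and 7 to 11 lower at E17.5 (16.7% to 26.2%, against 20.1% to 25.3%). With regions called in 2 or more libraries, limma tested 135 members and counted 60 lower (44.4%, against 24.3%) and 15 higher in EPDCs (11.1%, against 23.3%), and 29 higher (21.5%, against 15.6%) and 21 lower at E17.5 (15.6%, against 20.7%). The share higher at E17.5 thus lay above that of all regions there, and below it in the regions called in all libraries (16.7% against 24.2%). Median centring moved the median stage difference of all regions from 0.03 to 0.13.

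Replicate numbers are shared by the ages. With the replicate number as a block, 29 regions were higher (26.9%, against 21.4% of all regions) and 56 lower (51.9%, against 51.5%) at E17.5 by rank, and 10 higher (23.8%, against 26.0%) and 12 lower (28.6%, against 24.4%) by limma. Same-numbered libraries correlated at 0.028, 0.086 and −0.054 in their deviations, so the samples share only a number.

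Differences of named regions that changed sign are given in percentile points for ranks. By fold enrichment, EPDC differences became 3.70 (*Msln* +26.8 kb), 3.09 (*Msln* −1.7 kb), 0.573 (*Msln* −2.6 kb), −1.16 (*Upk1b* +38.1 kb), 5.76 (*Lrrn4* +34.1 kb), 0.930 (*Muc16* +200.9 kb) and 21.2 (*Pdpn* promoter), and the stage difference of the *Muc16* promoter −5.36. *Calb2* −15.7 kb in EPDCs became 0.368 with −log10 q of at least 5, and with equal numbers it was 0 in EPDCs and at E17.5, while *Lrrn4* −0.6 kb at E17.5 became 8.82 with equal numbers. With the overlapping interval, *Bnc1* +46.7 kb at E17.5 became 4.81 and *Bnc2* −0.9 kb 4.20 in EPDCs and −8.25 at E17.5. On the score (log2), EPDC differences became 0.347 (*Msln* +26.8 kb), 0.0993 (*Muc16* +200.9 kb) and 0.0110 (*Pdpn* promoter), and stage differences 0.170 (*Msln* +26.8 kb), 0.0119 (*Upk3b* promoter), 0.0486 (*Lrrn4* −0.6 kb) and 0.150 (*Muc16* +200.9 kb).

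Of 96 rank differences of named regions, 9 no longer passed by fold enrichment and 12 with equal numbers, with the direction kept or a difference of 0. In EPDCs these were the *Upk1b* promoter, *Upk1b* +7.0 kb, *Upk1b* +1.7 kb, *Upk3b* −18.5 kb and *Bnc2* +312.8 kb by fold enrichment, and *Upk1b* +1.7 kb, *Upk3b* +11.6 kb, *Lrrn4* −13.1 kb, *Pdpn* +28.6 kb and *Gpm6a* +13.4 kb with equal numbers. The rest were stage differences, among them *Lrrn4* −13.1 kb and *Pdpn* +21 kb by fold enrichment and *Msln* −2.6 kb and *Pdpn* +19.8 kb with equal numbers. A −log10 q of at least 5 ended the calls of *Pdpn* +28.6 kb in EPDCs and *Calb2* −15.7 kb at E17.5, and the overlapping interval those of *Upk1b* −16.4 kb in EPDCs and *Msln* −1.7 kb and *Bnc1* +46.2 kb at E17.5. The score ended those of *Msln* −2.6 kb, *Lrrn4* +34.1 kb, *Bnc2* +325.5 kb and the *Bnc2* promoter at E17.5. Calls were gained in EPDCs by the *Bnc1* promoter (fold enrichment), the *Lrrn4* promoter (−log10 q, and overlapping interval), the *Bnc2* promoter (equal numbers) and *Bnc1* +46.7 kb (overlapping interval). At E17.5 they were gained by *Bnc2* +129.7 kb (equal numbers, score and block), *Lrrn4* −0.6 kb (overlapping interval), *Calb2* +37.5 kb (overlapping interval and block) and *Muc16* +200.9 kb (block).

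By limma with median centring, log2 stage differences became 0.42 (*Msln* +26.8 kb), 0.12 (*Upk1b* +7.0 kb), 0.26 (*Upk3b* −18.5 kb), 0.26 (*Upk3b* promoter), 0.13 (*Lrrn4* +34.1 kb), 0.36 (*Muc16* +200.9 kb), 0.17 (*Pdpn* promoter), 0.20 (*Bnc1* promoter) and 0.13 (*Bnc2* promoter). With limma on the score, the *Bnc1* promoter became 0.29 in EPDCs, and *Msln* −2.6 kb −0.32 and *Calb2* +37.5 kb −0.0706 at E17.5. With regions called in 2 or more libraries, *Msln* +26.8 kb became −0.10 in EPDCs and *Calb2* +37.5 kb −0.0856 at E17.5.

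Leaving out 1 library moved EPDC differences by rank from −10.6 to 1.91 (*Calb2* −15.7 kb), −21.8 to 17.2 (*Lrrn4* +24.4 kb), −5.10 to 0.391 (*Lrrn4* +34.1 kb), −0.764 to 0.184 (*Muc16* +200.9 kb), −1.46 to 0.0789 (*Pdpn* promoter) and −1.69 to 6.24 (*Upk1b* +38.1 kb), and stage differences from −1.85 to 2.37 (*Muc16* promoter) and −1.78 to 11.8 (*Upk1b* +1.7 kb). By limma the EPDC ranges were −0.0857 to 0.0583 (*Msln* +26.8 kb) and −0.0291 to 0.174 (*Muc16* +200.9 kb), and the stage ranges −0.128 to 0.0147 (*Bnc2* promoter), −0.0183 to 0.0660 (*Calb2* +37.5 kb), −0.0359 to 0.0302 (*Msln* +26.8 kb) and −0.0849 to 0.0624 (*Muc16* +200.9 kb). The cause was not tested. Sequencing depth is not given in the lists, and the number of summits is itself an outcome of calling.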
